A study of Mus musculus with 6 samples.

Results

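Motor neurons of the spinal accessory nerve and of the branchial nerves send their axons out of the neural tube at a dorsal or lateral exit point, whereas somatic motor axons leave ventrally. Transcription factors of the Phox2 and T-box families mark the cranial branchial and visceral motor neurons, ALCAM is a cell adhesion molecule of motor axons, and the chemokine CXCL12 with its receptor CXCR4 and the growth factor receptor MET steer motor axons towards or away from exits and targets. In all, 9 genes of this kind were followed here (9 of 19920 genes with a complete probe set): the transcription factor genes Phox2a, Tbx20, Tbx2 and Tbx3, the adhesion gene Alcam, the chemokine gene Cxcl12, the receptor genes Cxcr4 and Met, and Rgs4, which encodes a regulator of G-protein signalling. They were taken by gene symbol from the array annotation, and each had 1 probe set of its own with a value on all 6 arrays.

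The tissue was mouse cervical spinal cord at embryonic day 11.5, from which dorsal cord and floor plate had been left out, and gene expression was read on whole-transcript arrays after whole-transcriptome amplification. One group of 3 arrays was labelled Nkx2.9 knockout (called KO-A, KO-B and KO-C after the letters in the labels) and the other 3 wild type (WT-A, WT-B and WT-C); the sources used here gave no strain, no deleted part of the gene and no word on pooling of embryos. Nkx2-9 is a homeodomain factor of ventral progenitors, and the stated aim of the series was to find its effectors in spinal accessory motor neurons. Each deposited value was a log2 expression value less the median of its probe set across all 6 arrays, so 0 means the middle of the 6 arrays for that gene. Differences between arrays were therefore measured, while the level of a gene, its signal over background and the presence of the defining markers of motor neurons could not be seen. A gene whose 2 groups separate lies on both sides of 0 by construction.

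In limma, 0 of the 28815 probe sets had an adjusted p under 0.05, and the smallest was 0.812. The targeted gene itself, Nkx2-9, differed by 0.18 (SE 0.11) towards the arrays labelled knockout, and its groups overlapped. Its difference lay between 0.10 (without KO-B) and 0.27 (without KO-A) with single arrays left out. With the letter as a replicate block it was 0.18 (SE 0.045). Every direction below therefore rests on the labels. Xist, the X-inactivation RNA, stood at 4.56 and 4.91 on KO-B and KO-C and between -0.25 and 0.11 on the other 4. No wild-type array was thus among those with high Xist. A fit with a term for high Xist therefore reads the difference from KO-A alone against the wild type, here and below. For Nkx2-9 such a fit gave 0.013. The labels did not say whether arrays came from separate embryos. KO-A differed from KO-B and KO-C in Xist and in Y-linked genes, so these 3 arrays were not all repeats of 1 sample. The p-values measure the spread between these samples, which may be technical in part, and 3 arrays a group limit the precision. Because whole tissue was profiled, fewer motor neurons and less RNA per motor neuron cannot be told apart.

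None of the 9 members passed an adjusted p of 0.05 over all probe sets in limma, where 0% of the table was called. At an unadjusted p under 0.05 there were 2 of 9, Met and Rgs4, beside 5.57% of all probe sets. The same 2 (22.2%) were the members whose groups did not overlap, beside 10.9% of all complete probe sets in either direction. Both lay lower in the arrays labelled knockout, and 4.25% of complete probe sets lay lower without overlap. Of the other 7 members, 5 were higher and 2 lower in the mean, and the median difference of the 9 was 0.015, beside 0.0087 for the whole table. Over all complete probe sets 55.0% were higher and 45.0% lower in the knockout mean, beside which the counts for the lists below stand. Those lists were chosen with earlier results of these data known, so their counts beside any such share are description only. With single arrays left out, the members at an unadjusted p under 0.05 were Rgs4 alone without KO-A, Met alone without KO-C, Cxcr4 alone without WT-A, none without WT-B, Met and Rgs4 without WT-C, and Tbx3, Alcam and Met without KO-B in limma. The count of members without overlap was 4 when KO-B was left out, where 27.3% of complete probe sets did not overlap.

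**Figure D1:**
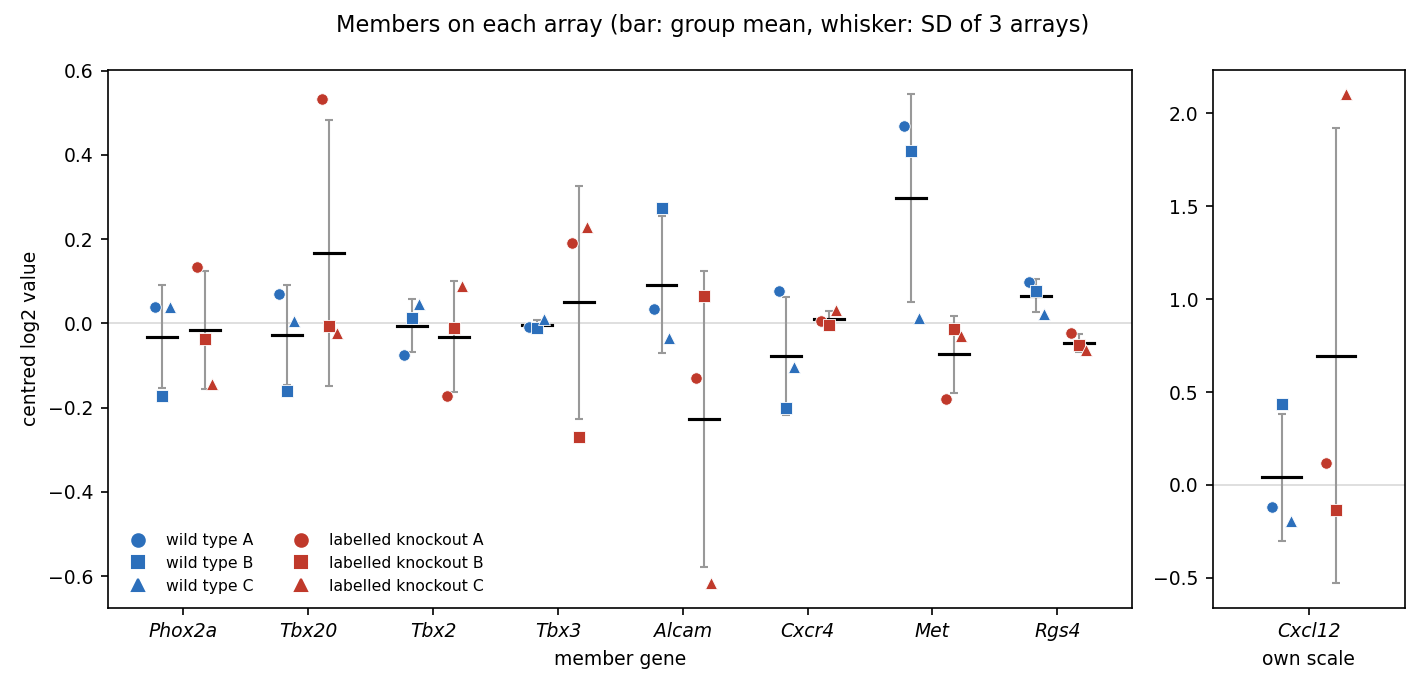
Centred log2 value (vertical axis) of each of the 9 members on each of the 6 arrays, with wild type in blue, labelled knockout in red and the letters as shapes; bars are group means and whiskers SDs over 3 arrays, and Cxcl12 has its own scale. Only Met and Rgs4 show no overlap between the groups, and single arrays stand apart for Cxcl12 (2.10 on KO-C), Alcam (-0.62 on KO-C) and Tbx20 (0.53 on KO-A).

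Upstream sequence was available for 7 of the 9 members in the RefSeq promoter table of build GRCm38.p6. The 250 bases before the annotated start are printed for 3 of them, 5′ to 3′ on the gene's strand: Cxcl12 and Alcam, the members with the widest range over the arrays, and Rgs4, the member with the least spread within groups. Capitals mark the CG pairs, which are counted after the sequences.
Cxcl12, chr6:117168285-117168534, plus strand: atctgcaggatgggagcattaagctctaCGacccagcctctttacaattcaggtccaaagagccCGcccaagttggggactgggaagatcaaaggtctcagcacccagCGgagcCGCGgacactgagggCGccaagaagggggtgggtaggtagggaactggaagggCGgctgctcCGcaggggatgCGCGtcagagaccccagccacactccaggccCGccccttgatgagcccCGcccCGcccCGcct
Alcam, chr16:52453082-52453331, minus strand: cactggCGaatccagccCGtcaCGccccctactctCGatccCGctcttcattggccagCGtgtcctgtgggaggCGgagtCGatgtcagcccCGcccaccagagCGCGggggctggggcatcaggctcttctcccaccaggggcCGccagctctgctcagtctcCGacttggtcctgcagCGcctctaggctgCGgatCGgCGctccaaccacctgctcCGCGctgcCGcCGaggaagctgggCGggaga
Rgs4, chr1:169747643-169747892, minus strand: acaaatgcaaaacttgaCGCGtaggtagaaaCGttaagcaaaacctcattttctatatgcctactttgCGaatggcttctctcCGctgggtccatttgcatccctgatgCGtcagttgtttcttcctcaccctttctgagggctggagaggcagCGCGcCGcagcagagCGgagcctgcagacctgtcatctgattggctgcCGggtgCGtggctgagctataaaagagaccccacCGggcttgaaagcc

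All 7 upstream windows held more CG pairs than the median window. They held from 13 (Rgs4) to 24 (Met) pairs, where the median of 32851 windows in the table was 6, and their GC content ran from 53.6% (Rgs4) to 74.0% (Met) beside a median of 52.4%. Phox2a, Tbx20 and Alcam had 22 pairs each, Cxcr4 19 and Cxcl12 14. Of all windows, 68.5% had fewer pairs than that of Rgs4, 70.6% fewer than that of Cxcl12 and 88.0% fewer than that of Met. The core motif of NK2-class homeodomain proteins, searched as TNAAGTG on both strands without respect to overlap with other motifs, was in 0 of the 7 windows and in 10.1% of all windows of this length. That says only that these letters do not occur in the 250 bases examined.

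Among the transcription factors, Phox2a encodes a paired-like homeodomain protein of branchial and visceral motor neurons and of noradrenergic neurons. Its values were 0.13, -0.038 and -0.14 on KO-A, KO-B and KO-C and 0.039, -0.17 and 0.038 on WT-A, WT-B and WT-C. The highest and the second lowest value were both in the knockout group, and the groups overlapped. The group means were -0.016 ± 0.14 and -0.032 ± 0.12 (SD, n = 3 each), a difference of 0.015 (SE 0.092; 95% interval -0.21 to 0.24; adjusted p = 0.986 in limma). On a linear scale that interval runs from 0.866 to 1.18 times the wild type, so these arrays do not exclude changes of that size in either direction. The sign turned to -0.059 without KO-A and to -0.055 without WT-B, and the difference was 0.16 (SE 0.11) with a term for the arrays of high Xist.

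Tbx20, the T-box factor of branchial and visceral motor neurons, was set apart by 1 array. It stood at 0.53, -0.0056 and -0.023 on KO-A, KO-B and KO-C, against 0.069, -0.16 and 0.0056 on WT-A, WT-B and WT-C. Apart from KO-A, the 5 arrays lay within -0.16 and 0.069, and the groups overlapped. The difference was 0.20 (SE 0.16; 95% interval -0.19 to 0.58; adjusted p = 0.836 in limma), with a knockout mean of 0.17 ± 0.32 against -0.028 ± 0.12. Without KO-A it was 0.014. KO-A was also the array of its group with low Xist, and with a term for the arrays of high Xist the difference was 0.56 (SE 0.10; adjusted p = 0.746 in limma), which is read from that single array against the wild type; sex and that 1 array cannot be told apart here.

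Tbx2 and Tbx3, closely related T-box repressors, had small differences of opposite sign. Tbx2 was at -0.17, -0.012 and 0.089 on KO-A, KO-B and KO-C, against -0.074, 0.012 and 0.0465 on WT-A, WT-B and WT-C. Both its lowest and its highest value came from the knockout group, and the difference was -0.026 (SE 0.076; 95% interval -0.21 to 0.16; adjusted p = 0.969 in limma). Tbx3 was at 0.19, -0.27 and 0.23 on KO-A, KO-B and KO-C, whereas the wild-type arrays stood at -0.0096, -0.0099 and 0.0096. The knockout SD of 0.28 thus faced a wild-type SD of 0.011, and the wild-type values lay inside the knockout range. Its difference of 0.053 (SE 0.13; adjusted p = 0.960 in limma) changed sign without KO-A (-0.017), without KO-C (-0.035) and with quantile normalization (-0.0025), and was 0.21 without KO-B. That of Tbx2 was 0.044 without KO-A, -0.087 without KO-C and -0.00040 without WT-C. With a term for the arrays of high Xist, read from KO-A alone against the wild type, Tbx2 was at -0.17 and Tbx3 at 0.19.

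Of the adhesion and chemokine genes, Alcam encodes an immunoglobulin-type adhesion molecule that also labels spinal accessory axons. Its values were -0.13, 0.064 and -0.62 on KO-A, KO-B and KO-C and 0.034, 0.27 and -0.034 on WT-A, WT-B and WT-C. KO-C was lowest and WT-B highest, while KO-B lay above 2 wild-type arrays, so the groups overlapped. The difference was -0.32 (SE 0.18; lower by a factor of 1.25 in the KO arrays; 95% interval -0.76 to 0.12; adjusted p = 0.812 in limma). An exact permutation test, two-sided, gave p = 0.3, where 0.1 is the least that 3 arrays against 3 can give. The difference was -0.12 without KO-C and -0.47 without KO-B, negative in both. With the letter as a replicate block its SE was 0.098, with an unadjusted p of 0.0255 and an adjusted p of 0.504 in limma. The 3 one-symbol genes whose 6 values came closest to Alcam, by root mean square difference among 21761 probe sets, were Sgip1 (0.043), Scn2a (0.045) and Aplp1 (0.050); Scn2a encodes a voltage-gated sodium channel and Aplp1 an amyloid-precursor-like protein of neurons. In all, 80 probe sets lay within 0.1 of it.

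Genes of differentiated neurons were low on the array where Alcam was lowest. The median of 14 such genes, fixed as a list, was -0.20 on KO-C, -0.052 on KO-A and -0.00050 on KO-B, against 0.038, 0.16 and -0.013 on WT-A, WT-B and WT-C. In this list 13 of 14 had a lower mean in the arrays labelled knockout and 1 a higher one, with a median difference of -0.14. The 8 motor neuron markers had medians of -0.11, 0.054 and -0.0042 on KO-A, KO-B and KO-C and of 0.057, 0.25 and -0.20 in the wild type, with 6 of 8 lower. The part of either list in the value of Alcam was not tested. Among 10 adhesion molecules related to ALCAM, 7 had a lower mean in the arrays labelled knockout and 3 a higher one (median difference -0.096), and 0 of 10 had an unadjusted p under 0.05. Nrcam differed by -0.35 (SE 0.15), Cntn1 by -0.42 (SE 0.19) and Cntn2 by 0.26 (SE 0.13), none of them past the test. Nrcam was at -0.19 without KO-C, Cntn2 at 0.16 without KO-A and the list median at -0.053 without WT-B.

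Cxcl12, the ligand of CXCR4, varied most of all members. It was at 0.12, -0.13 and 2.10 on KO-A, KO-B and KO-C, against -0.12, 0.43 and -0.19 on WT-A, WT-B and WT-C. KO-C stood 1.67 above WT-B, the next array, and the other 2 knockout arrays lay inside the wild-type range. Its range of 2.29 exceeded that of 99.9% of complete probe sets. The difference of 0.65 had an SE of 0.58 (95% interval -0.75 to 2.06; adjusted p = 0.846 in limma), and without KO-C it was -0.049 (SE 0.21). It was 0.37 with quantile normalization and 0.42 with array weights. With a term for the arrays of high Xist, which leaves KO-A alone against the wild type, the difference was 0.077.

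Mesenchyme and vessel genes were high on the same array as Cxcl12. Of 16 mesenchyme and sclerotome genes, 15 had their highest value on KO-C, as had 11 of 12 vessel genes and 27.1% of all complete probe sets. The mesenchyme medians were 0.00070, -0.020 and 0.54 on KO-A, KO-B and KO-C and -0.075, 0.12 and -0.0040 on WT-A, WT-B and WT-C, so WT-B came next, as for Cxcl12. Twist1, a transcription factor of mesenchyme, reached 2.32 on KO-C and 0.86 on WT-B, and Pdgfra, a growth factor receptor of mesenchyme, 1.74 and 0.21. Dcn of the same list went the other way, at -0.24 on KO-C and -2.02 on WT-B, and Col1a1 was only at 0.034 on KO-C. The vessel medians were -0.12, -0.0015 and 0.45 on KO-A, KO-B and KO-C and -0.029, 0.075 and -0.071 in the wild type. The 8 macrophage genes had medians from -0.17 to 0.093 over the 6 arrays, the highest also on KO-C, where 4 of the 8 had their highest value. All 16 mesenchyme genes were higher in the knockout mean (median difference 0.31), and without KO-C 5 were higher and 11 lower (median -0.045); the vessel median went from 0.16 to -0.065. The genes closest to Cxcl12 over the 6 arrays were Postn (root mean square difference 0.089), which encodes the matrix protein periostin, Slc38a4 (0.19) and Foxf1 (0.19), a transcription factor of mesenchyme, with 1 of 21761 probe sets within 0.1. The part of mesenchyme in the Cxcl12 value was not tested; without that array neither Cxcl12 nor the mesenchyme list was higher in the arrays labelled knockout.

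**Figure D2:**
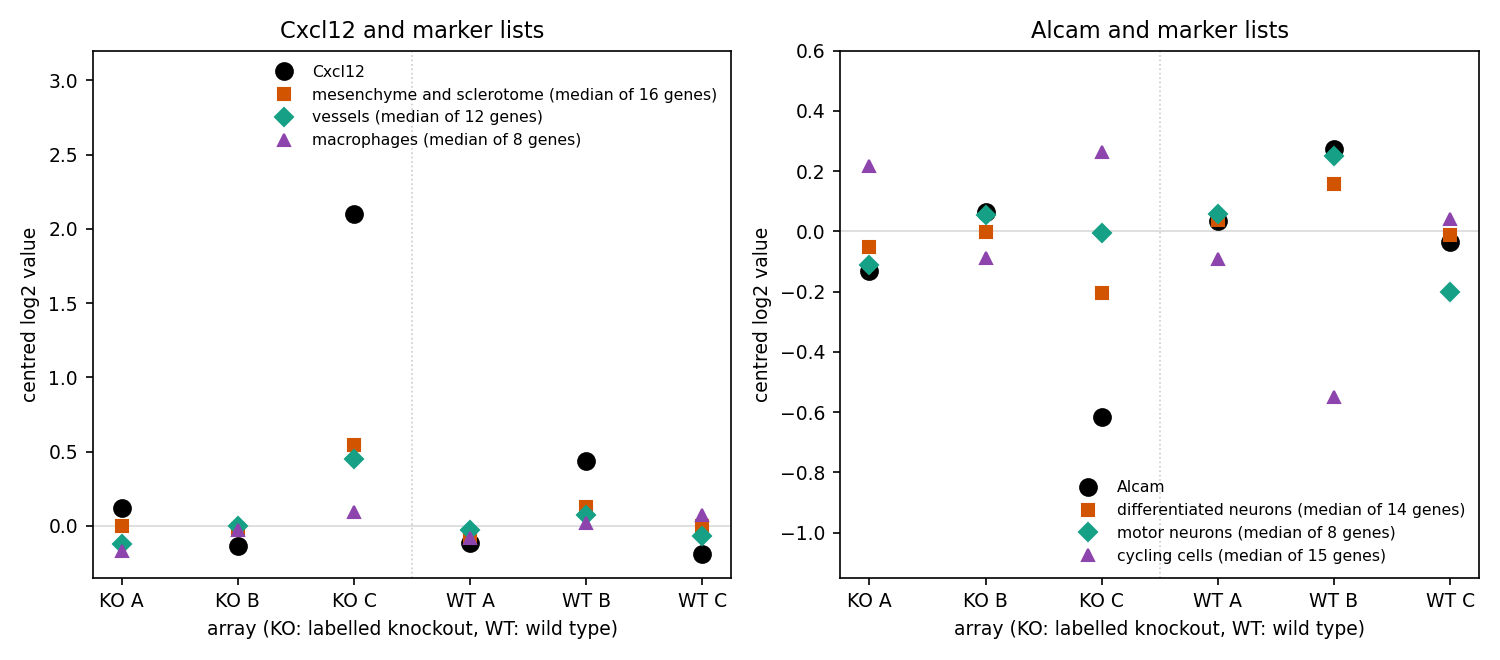
Centred log2 values on the 6 arrays for Cxcl12 (left, black) with the medians of the mesenchyme, vessel and macrophage lists, and for Alcam (right, black) with the medians of the differentiated neuron, motor neuron and cycling cell lists. On KO-C, Cxcl12 was at 2.10, the mesenchyme median at 0.54 and the vessel median at 0.45, while Alcam was at -0.62 and the neuron median at -0.20.

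Cxcr4, the receptor of CXCL12, was not set apart on KO-C, the array on which its ligand gene was highest. Its knockout values were 0.0046, -0.0046 and 0.032 on KO-A, KO-B and KO-C, beside 0.076, -0.20 and -0.10 on WT-A, WT-B and WT-C. The knockout arrays lay close together (SD 0.019) inside the wild-type range (SD 0.14). The difference was 0.087 (SE 0.074; 95% interval -0.092 to 0.27; adjusted p = 0.842 in limma), and it was 0.025 without WT-B and 0.16 without WT-A. Among 12 other measured genes of CXCL12 signalling, 8 were higher and 4 lower in the mean, with a median difference of 0.012. That median was below 0 without KO-A (-0.0047) and without WT-A (-0.0046). At an unadjusted p under 0.05 in limma there was 1 gene, beside 5.57% of all probe sets. This was Cxcl14, another chemokine gene, at 0.29 (SE 0.11), with its highest value, 0.415, also on KO-C, and at 0.17 (SE 0.060) without that array. The G-protein subunit genes Gnai1 and Gnai3 were at -0.15 (SE 0.067) and 0.064 (SE 0.053), the first at -0.097 without WT-B and the second at 0.025 without KO-C.

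Met, the receptor tyrosine kinase for hepatocyte growth factor, had the largest difference among the members without group overlap. It was at -0.18, -0.014 and -0.029 on KO-A, KO-B and KO-C, against 0.47, 0.41 and 0.014 on WT-A, WT-B and WT-C. WT-A and WT-B were high, and WT-C exceeded the highest knockout array by only 0.027. The group means were -0.074 ± 0.091 and 0.30 ± 0.25, a difference of -0.37 (SE 0.13; lower by a factor of 1.29 in the KO arrays; 95% interval -0.67 to -0.067). The unadjusted p was 0.0240 and the adjusted p 0.812 in limma, and the exact two-sided permutation p was 0.1, the least that 3 arrays against 3 can give. With single arrays left out the difference lay between -0.51 (without WT-C) and -0.29 (without WT-A), with an unadjusted p from 0.000560 to 0.0778 in limma. Its sign could not turn there, because the groups did not overlap. Of 15 other genes of HGF and MET signalling, 8 were higher and 7 lower (median difference 0.0053, and -0.0077 without WT-B), and 0 had an unadjusted p under 0.05. Cd44, a co-receptor gene, was at 0.092 (SE 0.051), the protease inhibitor gene Spint2 at -0.096 (SE 0.058) and Stat3 at -0.13 (SE 0.080). Without WT-B, Spint2 was at -0.057 and Stat3 at -0.051, whereas Cd44 was at 0.032 in the fit that held high Xist as a term. The ligand gene Hgf and the adaptor gene Grb2, both named after their values were seen, were the genes of this list without overlap, at 0.056 (SE 0.041) and -0.055 (SE 0.039). Over all complete probe sets 10.9% did not overlap, in either direction.

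Rgs4, which is expressed in branchial and visceral motor neurons, had the smallest spread of the 9. Its values were -0.022, -0.052 and -0.063 on KO-A, KO-B and KO-C and 0.098, 0.077 and 0.022 on WT-A, WT-B and WT-C. All 3 knockout arrays lay below all 3 wild-type arrays, with a gap of 0.044 between the nearest. The group means were -0.046 ± 0.021 and 0.066 ± 0.039, a difference of -0.11 (SE 0.042; 1.08-fold lower; 95% interval -0.21 to -0.010). The unadjusted p was 0.0358 and the adjusted p 0.812 in limma, and the exact two-sided permutation p was 0.1. With the letter as a replicate block the unadjusted p was 0.0568 in limma. Its SD within groups, 0.032, was below that of all but 8.7% of complete probe sets. With single arrays left out the difference lay between -0.13 and -0.095, with an unadjusted p from 0.0321 to 0.107 in limma. Its sign could not turn there, because the groups did not overlap. With a term for the arrays of high Xist the difference was -0.088, read from KO-A alone against the wild type. Of 16 other RGS genes, 11 were lower and 5 higher (median difference -0.021) and 0 had an unadjusted p under 0.05; Rgs5 was at -0.41 (SE 0.23), Rgs17 at -0.38 (SE 0.21) and Rgs2 at -0.21 (SE 0.12). Rgs5 was at -0.19 without KO-A and -0.25 without WT-B, Rgs17 at -0.23 and -0.19 without the same arrays, and Rgs2 at -0.35 without KO-B and -0.13 without KO-C. The list median was -0.010 without KO-A.

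A list of mostly posterior Hox genes, which mark position along the head-to-tail axis, also held Hoxa5, Hoxb5 and Hoxc5. Of its 14 measured genes, 11 had a lower mean in the arrays labelled knockout and 3 a higher one. The 3 were Hoxb5 (0.17), Hoxc5 (0.21) and Hoxc9 (0.0073). The median of the 14 was -0.43, -0.081 and -0.10 on KO-A, KO-B and KO-C and 0.064, 0.31 and 0.18 on WT-A, WT-B and WT-C, and 7 of the 14 (beside 4.25% of complete probe sets) lay lower without overlap, while the groups of the other 7 overlapped. Cycling cell genes had medians of 0.22, -0.089 and 0.26 on KO-A, KO-B and KO-C and of -0.093, -0.55 and 0.042 in the wild type. Both lists were chosen with earlier results of these data known, so these counts are description only. The part of either list in the values of Met and Rgs4 was not tested.

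**Figure D3:**
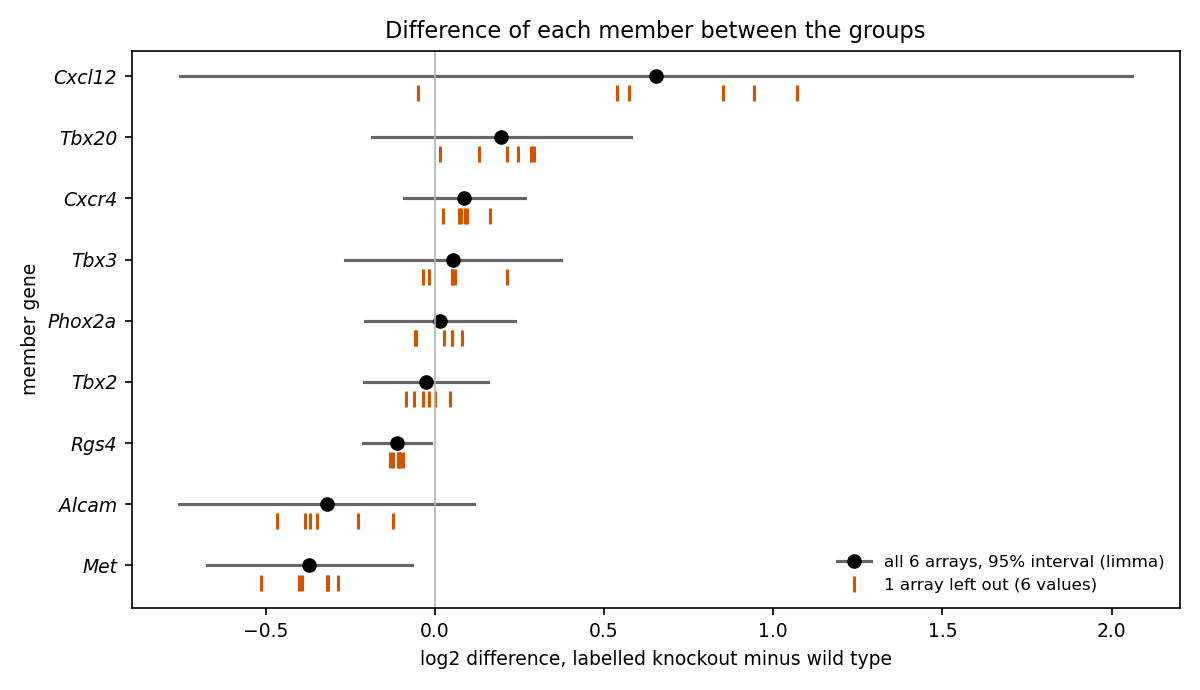
Log2 difference of each member, arrays labelled knockout minus wild type (horizontal axis), with its 95% interval from limma over all 6 arrays (black point and grey line) and the 6 values with 1 array left out (orange ticks). The intervals of Met (-0.67 to -0.067) and Rgs4 (-0.21 to -0.010) lie below 0, and that of Cxcl12 is the widest (-0.75 to 2.06).

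The genes that specify or guide the same neurons were described from fixed lists. Of 17 measured motor neuron identity genes other than the members, chosen for branchial and visceral motor neurons, 9 had a higher and 8 a lower KO mean (median difference 0.085), and 3 had an unadjusted p under 0.05, all higher, beside 5.57% of all probe sets in either direction. The list also holds Isl2, Mnx1, Lhx3 and Lhx4, genes of somatic motor neurons, the first 3 of which were counted among the motor neuron markers too. The 3 were Gata2, a zinc finger factor gene, at 0.16 (SE 0.053), the homeobox gene Isl2 at 0.18 (SE 0.067) and the progenitor homeobox gene Nkx6-2 at 0.13 (SE 0.054); none passed the adjusted threshold in limma, and Nkx6-2 was at 0.037 with a term for the arrays of high Xist. Gata2 was at 0.096, 0.030 and 0.085 on KO-A, KO-B and KO-C, against -0.075, -0.030 and -0.18 in the wild type, without overlap. In this list 4 of 17 lay higher without overlap and 0 lower, beside 10.9% of complete probe sets in either direction. Besides Gata2 they were Isl2, Nkx6-2 and Nkx6-1. The last, named after its values were seen, differed by 0.24 (SE 0.10). The median of this list was -0.061 without WT-C, -0.019 without KO-C and 0.048 without KO-B.

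Of 20 guidance genes of motor axon exit, 12 were lower and 8 higher (median difference -0.073, and -0.033 without KO-C and -0.15 without WT-C). At an unadjusted p under 0.05 in limma there were 2 lower and 1 higher, beside 5.57% of all probe sets in either direction. Epha3, an ephrin receptor gene, was at -0.105, -0.018 and -0.10 on KO-A, KO-B and KO-C, against 0.30, 0.018 and 0.22 in the wild type, a difference of -0.25 (SE 0.079; adjusted p = 0.812 in limma). Its groups did not overlap. The Slit receptor gene Robo2 was at -0.72 (SE 0.28) and the ligand gene Slit3 at 0.30 (SE 0.11), both with overlapping groups; Slit3 was at 0.19 without KO-C. Of 12 other T-box genes, 7 were higher and 5 lower (median difference 0.026), and 0 had an unadjusted p under 0.05. Tbx19 was at 0.12 (SE 0.052), Tbx4 at 0.098 (SE 0.068) and Tbx18 at 0.091 (SE 0.061), the last at -0.0040 with a term for the arrays of high Xist. Tbx4 was at 0.032 without KO-B and Tbx18 at 0.040 without KO-C, and the list median was 0.0052 without KO-B. Tbx20 had the closest patterns in Tbrg3 (root mean square difference 0.073), Mir200b (0.078) and Mybl2 (0.081), a cell cycle transcription factor, whose values on KO-A were 0.41, 0.38 and 0.43.

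**Figure D4:**
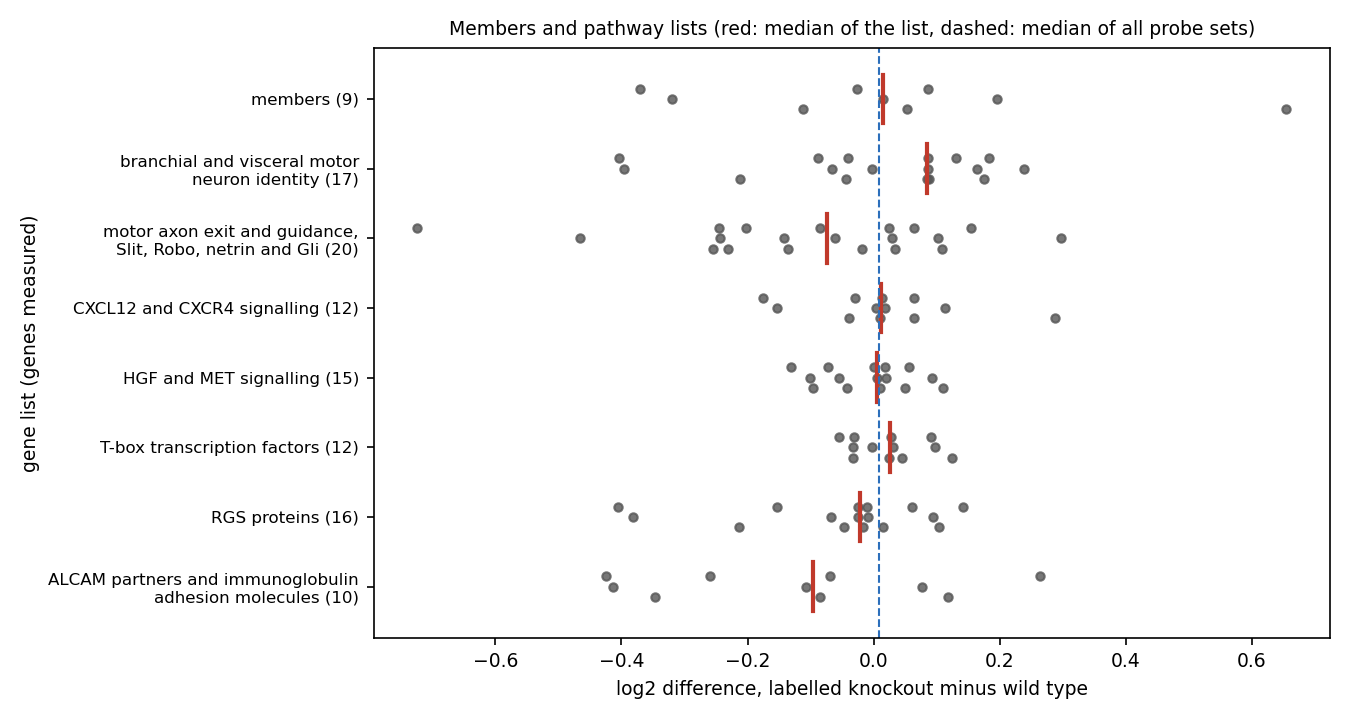
Log2 difference, arrays labelled knockout minus wild type (horizontal axis), of the 9 members and of every measured gene in 7 fixed pathway lists; each point is a gene, the red bar is the median of its list and the dashed line the median of all probe sets (0.0087). List medians run from -0.096 (ALCAM partners) to 0.085 (branchial and visceral identity), and the widest single value is Robo2 at -0.72 outside the members.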

How the data were processed

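RNA from cervical cord was amplified and labelled with biotin for whole-transcript arrays, per the labels' protocols. The authors made the deposited log2 values with RMA, per the submitters' processing notes, without a version; log base 2 was taken from RMA. RMA normalizes between arrays and pools the probes of a set. Each of the 28791 complete probe sets had a median of 0 across arrays (tolerance 1e-06), so rows had been centred. Of 28815 probe sets 24 lacked a value on WT-C and were fitted on 5 arrays; no member was among them.

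Symbols came from the platform annotation: 21780 probe sets had 1 symbol, 1605 several and 5430 none. Entrez identifiers of 21689 matched RefSeq (GRCm38.p6), with 0 symbols changed. List genes used 1 complete probe set each, the one with most accessions.

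Knockout minus wild type was fitted over all probe sets with limma 3.58.1 in R 4.3.3 (lmFit, eBayes), with genotype as the only term and Benjamini-Hochberg adjustment over the whole table; the script was tested on simulated data. SDs are over 3 arrays, SEs and 95% intervals from limma. Besides the members, the 3 genes of lowest p per pathway list and the 3 genes nearest to the 3 members of widest range are named. Exact permutation tests used scipy 1.17.1, and figures matplotlib 3.10.9. Alternatives were a replicate block, quantile normalization, median centring, array weights, a robust prior, 1 probe set per gene, a term for high Xist and each array left out; settings for lists were added after seeing the data. The members and lists were chosen with earlier results of these data known.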

Additional observations from a re-analysis of the deposited data

How the results depend on the processing

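No member passed an adjusted p of 0.05 in limma under any of the 7 other settings or with any of the 6 arrays left out; the smallest was 0.356. In the 7 settings 62 of 63 member differences kept their direction, the exception being Tbx3 with quantile normalization (-0.0025). That count says little, because the replicate block, the robust prior and 1 probe set per gene leave each member's difference unchanged. Median centring shifts all members alike. Tbx18 was at -0.0040 with the Xist term, which sets KO-A alone against the wild type. With 1 array left out, 48 of 54 member differences kept their direction. The ranges were -0.059 to 0.079 for Phox2a, -0.087 to 0.044 for Tbx2, -0.035 to 0.21 for Tbx3 and -0.049 to 1.07 for Cxcl12. Alcam, Cxcr4, Met, Rgs4 and Tbx20 kept their direction in every setting, and the 21 named list genes with each array left out. For Met, Rgs4 and the named genes without overlap, leaving out 1 array could not turn the sign. With 1 array left out, the members at an unadjusted p under 0.05 in limma numbered 0 to 3, beside 3.39% to 9.96% of all probe sets. Those without overlap numbered 2 to 4 of 9, beside 17.9% to 27.3% of complete probe sets. The latter count could not fall below 2, since leaving out an array cannot create overlap. Over the whole table, adjusted calls numbered 0 to 5 and probe sets at an unadjusted p under 0.05 from 977 (without WT-B) to 2871 (without KO-B). With the letter as a replicate block there were 2552, beside 1605 without it. Same-letter arrays deviated together in A (r = 0.165) and B (r = 0.216) and not in C (r = 0.016), over all complete probe sets, so the letters were not taken as pairs. The causes were not tested. Since levels had been removed by centring, what signal over background limits could not be seen.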

Other observations

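Genes of catecholamine neurons, a class in which Phox2 factors also act, were measured as a list of 6, of which 5 had a higher mean in the arrays labelled knockout (median difference 0.074, and 0.036 with 4 of 6 higher without WT-B). Th, which encodes tyrosine hydroxylase, was at 0.37, 0.084 and 0.39 on KO-A, KO-B and KO-C, against -0.084, -0.14 and -0.093 on WT-A, WT-B and WT-C, a difference of 0.39 (SE 0.087; unadjusted p = 0.00383 and adjusted p = 0.812 in limma). Slc18a2, the vesicular monoamine transporter gene, was at 0.27, 0.0044 and 0.43 against -0.0044, -0.29 and -0.077, a difference of 0.36 (SE 0.12). For both genes all 3 KO arrays lay above all 3 WT arrays, as for 1924 of 28791 complete probe sets. Of all 28791 complete probe sets, 55.0% had a higher mean in the arrays labelled knockout. Dbh, the dopamine beta-hydroxylase gene, was at 0.12 (SE 0.064), with overlapping groups, while Phox2a differed by 0.015. The rest of the list, Hand1, Slc6a2 and Hand2, stood at 0.032, 0.0185 and -0.045, also with overlap. No gene of the list passed over all probe sets.

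Floor plate had been left out of the tissue, and 6 of 7 floor plate genes had a higher mean in the arrays labelled knockout, 4 of them at an unadjusted p under 0.05 in limma (5.57% of all probe sets) and 3 without overlap (10.9% of complete probe sets, either direction). The median difference was 0.18, from 0.14 to 0.22 with single arrays left out. Foxa1 and Foxa2, forkhead factor genes of the floor plate, were at 0.18 (SE 0.050) and 0.22 (SE 0.066), and no gene of the list passed an adjusted p of 0.05. The list was chosen with earlier results of these data known, so these counts are description only. The part of these genes in the values of the members was not tested.

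The other marker lists had these median differences: 0.30 for 5 erythroid genes, 0.021 for 5 neural crest genes, 0.0097 for 6 dorsal root ganglion genes, -0.0099 for 8 skeletal muscle precursor genes, -0.016 for 8 dorsal cord genes, -0.046 for macrophage genes and 0.33 for cycling cell genes. Without WT-B the erythroid median was 0.021 and the cycling median 0.15. The sign turned for neural crest without KO-B (-0.044), for dorsal root ganglion without WT-B (-0.0063), for skeletal muscle without KO-B (0.025), for dorsal cord without WT-C (0.063) and for macrophages without KO-A (0.029), among other arrays for some lists. Medians near 0 did not mean even values across arrays. The genes named next were picked after their values were seen. Tfap2a and Tfap2b of the neural crest list were at -1.38 and -1.88 on KO-C and -0.63 and -0.51 on WT-B. Sox10, Foxd3 and Erbb3 were at 0.25, 0.093 and 0.43 on KO-C. Pax3 of the dorsal cord list was at -0.82 on KO-C and -0.94 on WT-B, while Wnt1 was at 0.14 and 0.0044. The erythroid medians were lowest on WT-B (-0.67) and WT-A (-0.41). The 3 Y-linked genes measured were low on the same 2 arrays on which Xist was high.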
